A study of Rattus norvegicus with 12 samples.

Results

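The Egr genes encode zinc finger transcription factors that are switched on within minutes by growth factors, calcium entry and neuronal activity, and the Nab genes encode the corepressors that bind Egr proteins and limit their action. The 6 genes described here, Egr1, Egr2, Egr3, Egr4, Nab1 and Nab2, were taken by gene name from a table of 30454 rat genes. All 6 were in the table, and 5 had enough counts to be tested. The data are 12 bulk RNA sequencing libraries of PC12 cells, a line derived from a rat adrenal chromaffin tumour, with 4 libraries in each of 3 groups. Every group was first deprived of oxygen and glucose and then reoxygenated. OGDR had no further treatment, MSCs had mesenchymal stem cells added, and rTMS-MSCs had the stem cells and repetitive transcranial magnetic stimulation at 10 Hz. The time given is 48 h after treatment. No group had stimulation without stem cells and none was left undeprived, so the stimulation step is seen only on top of stem cells. The labels do not say of which species the stem cells were, whether they touched the PC12 cells, or whether the 4 libraries of a group came from separate cultures. The design text also speaks of a microarray and of 20 cultures, whereas the library protocol is for RNA sequencing and 12 libraries were analysed here. The p-values therefore measure the spread between these libraries, which may be technical.

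Egr1 and Egr3 are classic immediate early genes of neurons, and in PC12 cells nerve growth factor induces Egr1 strongly through the ERK cascade and the serum response factor. Egr2 is best known as the regulator of myelin genes in Schwann cells. Egr proteins raise transcription of Nab2, whose product binds them and recruits a chromatin-remodelling complex, so that the pair forms a feedback loop, while Nab1 is the more constant partner. In bulk libraries, fewer cells of a type and less RNA per cell cannot be told apart.

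The promoters are shown first because the 3 Egr genes with counts were all higher in rTMS-MSCs than in MSCs and because Nab genes are known targets of Egr proteins. The RefSeq windows (build GRCr8) run from 250 bases before to 50 bases after the annotated start and were matched by symbol for 5 of the 6 genes, Egr3 being named only. Matches were sought on both strands to the CArG box that serum response factor binds, to the TGACG core of the cyclic AMP response element (CGTCA on the other strand) and to the Egr site (GCGNGGGCG). Capitals mark these matches, none of which overlap each other. The build differs from that used for counting, and a match is a description of the letters only. The windows of Egr1 (chr18:26736828-26737127, plus strand), Egr2 (chr20:21054392-21054691, minus strand) and Nab1 (chr9:56545392-56545691, plus strand) were as follows.
Egr1: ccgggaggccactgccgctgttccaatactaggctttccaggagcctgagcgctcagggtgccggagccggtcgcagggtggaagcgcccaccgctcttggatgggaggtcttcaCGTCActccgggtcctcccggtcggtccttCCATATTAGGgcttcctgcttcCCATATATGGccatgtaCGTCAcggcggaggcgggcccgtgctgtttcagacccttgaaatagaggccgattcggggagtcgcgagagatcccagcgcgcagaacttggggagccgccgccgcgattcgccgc
Egr2: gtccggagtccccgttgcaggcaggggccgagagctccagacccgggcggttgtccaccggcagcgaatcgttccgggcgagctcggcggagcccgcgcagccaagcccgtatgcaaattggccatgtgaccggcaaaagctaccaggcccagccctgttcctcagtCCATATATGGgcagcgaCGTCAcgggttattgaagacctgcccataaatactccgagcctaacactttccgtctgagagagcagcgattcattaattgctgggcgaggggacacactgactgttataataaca
Nab1: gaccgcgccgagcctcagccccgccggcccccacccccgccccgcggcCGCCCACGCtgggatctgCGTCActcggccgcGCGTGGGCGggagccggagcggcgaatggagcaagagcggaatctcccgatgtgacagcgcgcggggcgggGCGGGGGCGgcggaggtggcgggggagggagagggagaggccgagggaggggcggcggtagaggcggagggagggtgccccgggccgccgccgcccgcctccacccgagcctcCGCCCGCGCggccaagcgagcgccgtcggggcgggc

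The Egr1 window held 2 CArG boxes, CCATATTAGG beginning 105 bases before the start and CCATATATGG beginning 83 bases before it. The Egr2 window held 1, again CCATATATGG and again at 83 bases. Of 33469 rat promoter windows of the same length, 1.64% held a CArG box and 0.0209% held at least 2. In both genes the box at 83 bases was followed, after 7 bases, by a TGACG core on the other strand, which 21.2% of all windows held somewhere. That spacing occurred in 3 windows in all, those of Egr1, Egr2 and Dusp5, an ERK phosphatase. It was searched for because Egr1 and Egr2 showed it, so the place of these 2 genes among the 3 was fixed in advance. Dusp5 itself did not follow Egr1: its log2 fold change in rTMS-MSCs against MSCs was 0.16 ± 0.0990 (SE, edgeR quasi-likelihood test, adjusted p = 0.257). Egr4 held 2 TGACG cores and no CArG box. The Nab1 window held 4 Egr sites, against 4.98% of windows with any and 0.0209% with at least 4, and 81.7% of its bases were G or C. The Nab2 window held none of the 3 motifs.

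**Figure D1:**
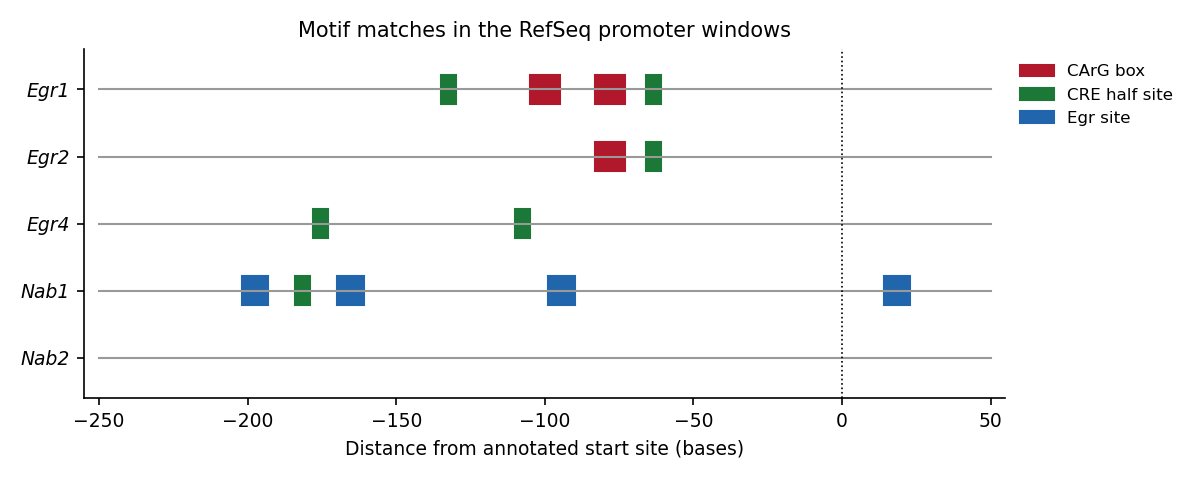
Matches to the CArG box (red), the TGACG core (green) and the Egr site (blue) by distance in bases from the annotated start (dotted line) in the promoter windows of 5 genes. Egr1 and Egr2 share the CArG box at 83 bases before the start and the TGACG core after it, and Nab1 carries the 4 Egr sites.

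Library totals over genes ran from 18246250 to 20471838 counts. No 2 libraries of a group agreed within sampling noise (chi-square over degrees of freedom 3.98 to 24.4). On the second principal component rTMS-MSCs 3 (32.4) stood apart from its group, whose other libraries ran from -0.959 to 9.59. MSCs 3 (-30.8) was the lowest of a group that was spread out, with the others from -21.0 to -10.3, so it was less clearly apart. The changes of the members are given without both where that matters. Calls on all other genes below, in lists and motif shares too, are over all 12 libraries only. Without both libraries, 677 genes instead of 2475 were called in rTMS-MSCs against MSCs, so those calls are less firm. Of the 15 chromaffin markers, 8 stayed under 1 CPM (counts scaled to the TMM library size) in every library, with Ddc and Hand2 among those at 0, while 7 of 8 Schwann and glial markers averaged 10 CPM or more. Only 1 chromaffin marker averaged 10 CPM or more, so most markers that define the labelled cell type were scarce or absent. The chromaffin markers summed to 276 to 341.5 CPM in OGDR, 193 to 239 in MSCs and 203 to 218 in rTMS-MSCs. Summed levels ran from 911 to 993 CPM in OGDR, from 1077 to 1150 in MSCs and from 1055 to 1166 in rTMS-MSCs for the glial markers. For the 15 mesenchymal stem cell markers they ran from 1951 to 2122, from 1955 to 2113 and from 1707 to 1993 CPM. Of these markers 7 averaged 10 CPM or more, while 5 stayed under 1 CPM throughout, with Lum at 0. For the 10 macrophage and leukocyte markers, 7 of them under 1 CPM throughout and Adgre1 at 0, the sums ran from 52.9 to 62.3, from 52.0 to 68.3 and from 66.7 to 80.5 CPM. The part of these differences in the results was not tested.

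Stimulation on top of stem cells went with more Egr1 RNA than either other group had, and Egr2 was also highest there. Egr1 fell with stem cells alone and rose 3.99-fold when stimulation was added. Egr2 rose at both steps. Egr3, at about 1 CPM, was low with stem cells and had a similar level in the other groups. Nab1 and Nab2 fell by small amounts in rTMS-MSCs against OGDR and passed in neither single step. The ratio of Egr1 to each of them was highest with stimulation. A gene is said to rise or fall where its adjusted p was under 0.05 in the edgeR quasi-likelihood test over 13692 genes. By that rule 1 member rose and 2 fell in MSCs against OGDR, where 20.2% of all tested genes changed, 11.6% upwards and 8.63% downwards. In rTMS-MSCs against MSCs 3 members rose and none fell, where 18.1% of all tested genes changed, 7.14% upwards and 10.9% downwards. In rTMS-MSCs against OGDR 2 rose and 2 fell, where 32.4% changed, 16.2% in each direction. The 4 values of each group did not overlap for 2, 3 and 4 members in these comparisons, against 24.7%, 19.0% and 30.3% of all tested genes. With so few members these counts add little, and the sizes carry the description. The comparisons share groups, so they are not independent of one another.

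**Figure D2:**
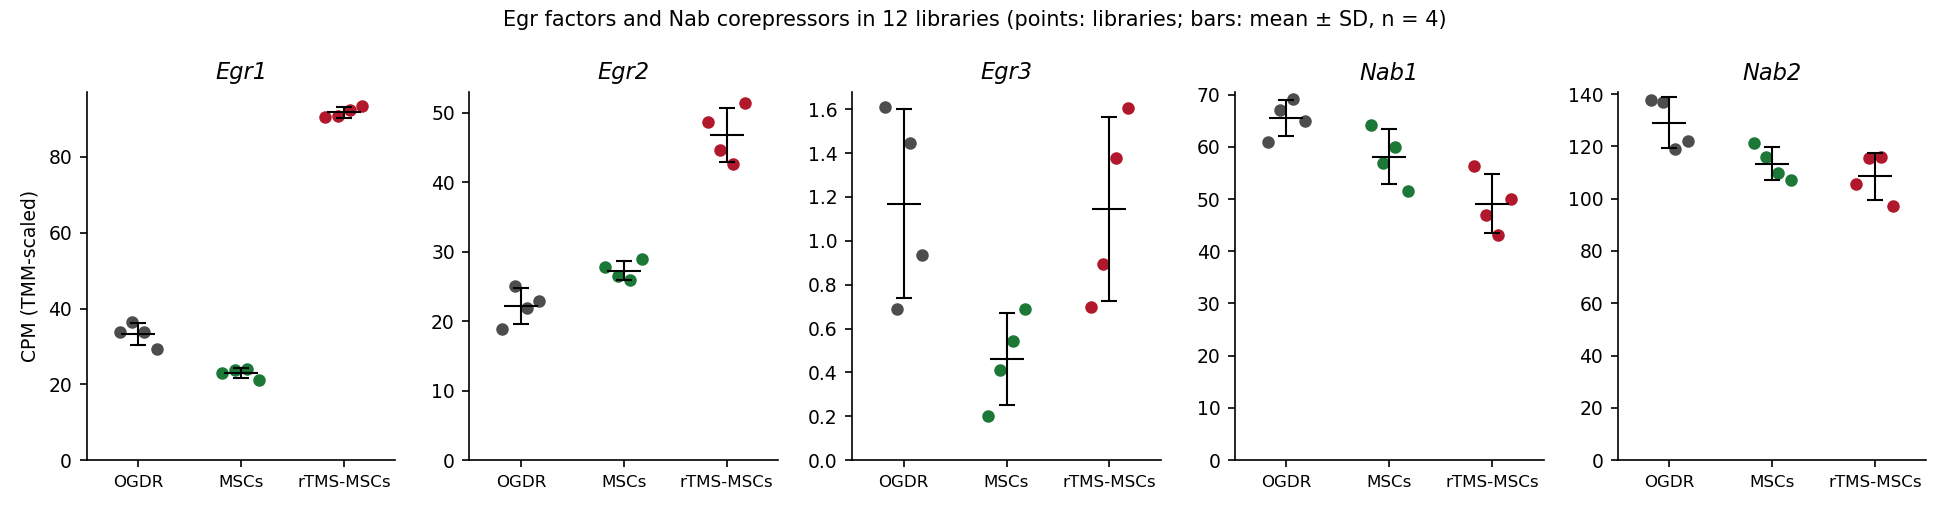
CPM of the 5 tested members in each library, by group, with the mean and SD of 4 libraries as bars and every axis starting at 0. The 4 rTMS-MSCs libraries sit between 90.4 and 93.5 CPM for Egr1, above the OGDR libraries, and the MSCs libraries sit lowest.

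Egr1, the factor also known as NGFI-A and zif268, stood at 33.7, 36.4, 33.9 and 29.5 CPM in OGDR 1 to 4. It stood at 23.0, 23.8, 23.9 and 21.2 CPM in MSCs 1 to 4, and at 90.4, 90.8, 92.4 and 93.5 CPM in rTMS-MSCs 1 to 4. No group overlapped another, and the order was MSCs, then OGDR, then rTMS-MSCs. With stem cells alone Egr1 fell by 0.54 on the log2 scale (SE 0.0759, adjusted p = 2.08e-05), to 68.8% of its OGDR level. With stimulation added it rose by 2.00 ± 0.0754 (SE, adjusted p = 6.94e-13), with a 95% interval of 1.84 to 2.16. Against OGDR it was 2.75-fold higher (log2 fold change 1.46 ± 0.0731, adjusted p = 5.85e-12). For Egr1 the stimulated libraries were also the most alike, with a coefficient of variation of 1.58%, against 5.48% in MSCs and 8.66% in OGDR. Counting error weighs less at higher counts, and its part was not tested. The other members did not share this order. rTMS-MSCs varied most for Nab1 (11.4%) and Nab2 (8.27%). For Egr2 it varied more than MSCs (8.38% against 5.14%), and for Egr3 it was like OGDR (both 36.7%). Without MSCs 3 and rTMS-MSCs 3 the rise was 2.01.

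Among all 13692 tested genes Egr1 had the smallest p in rTMS-MSCs against MSCs, and Egr2 had the next smallest. By fold Egr1 ranked 3 among rises. The 2 genes above it, looked up after their values were seen, were scarce: Stmn4, a stathmin, had 91 counts over all libraries and did not pass (adjusted p = 0.0571), and Ptprcap, a leukocyte phosphatase-associated protein, had 110 and rose by 2.41. Egr1 had 11611. A rise of at least 2-fold that passed the test was seen in 16 genes, or 0.117% of those tested. In MSCs against OGDR Egr1 was one change among many, at rank 471 by p.

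**Figure D3:**
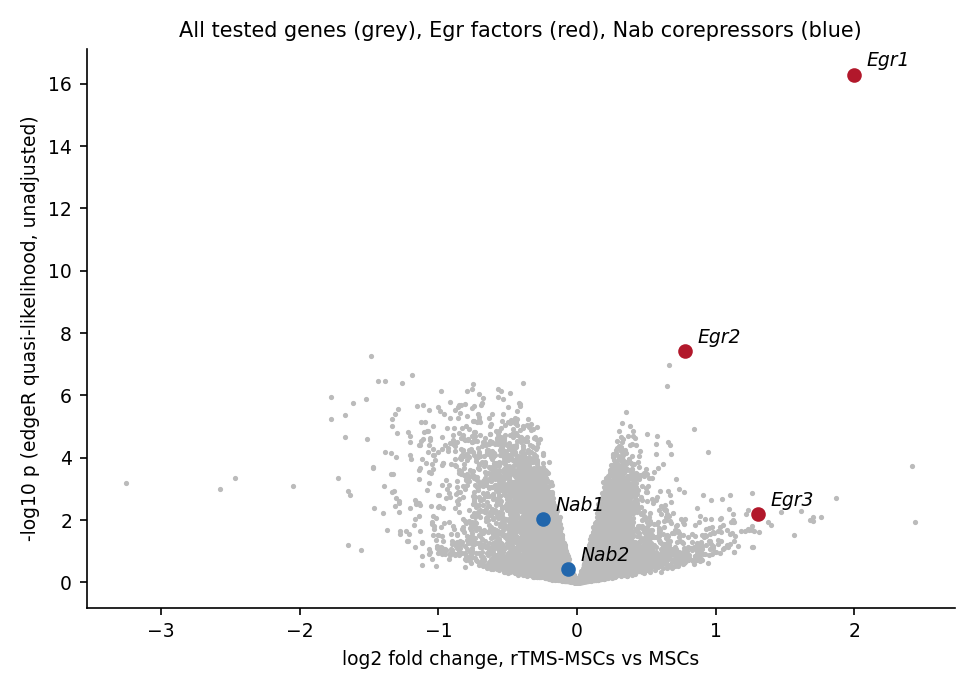
Log2 fold change in rTMS-MSCs against MSCs (horizontal) and unadjusted -log10 p (vertical) for 13692 tested genes in grey, with Egr factors in red and Nab corepressors in blue. Egr1 stands alone at the upper right with a log2 fold change of 2.00, and Nab2 lies near 0.

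Egr2, also known as Krox20, stood at 18.9, 25.1, 21.9 and 22.9 CPM in OGDR 1 to 4 and at 27.7, 26.4, 25.9 and 29.0 CPM in MSCs 1 to 4. It stood at 48.7, 44.7, 42.6 and 51.4 CPM in rTMS-MSCs 1 to 4. The order was OGDR, MSCs, rTMS-MSCs, with no overlap, although OGDR 2 came within 1 CPM of MSCs 3. Stimulation on stem cells went with a rise of 0.78 ± 0.0906 (SE, adjusted p = 0.000240), or 1.72-fold. Against OGDR the rise was 1.08 ± 0.0915 (adjusted p = 1.83e-08), or 2.11-fold. The step from OGDR to MSCs was smaller, at 0.30 ± 0.0928 (adjusted p = 0.0270). That step rested on single libraries: it was 0.23 without OGDR 1 (adjusted p = 0.103), 0.29 without OGDR 3 (adjusted p = 0.0595), 0.29 without MSCs 1 (adjusted p = 0.0658) and 0.27 without MSCs 4 (adjusted p = 0.0735). Egr1 and Egr2 thus went opposite ways with stem cells and the same way with stimulation.

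Egr3, which acts beside Egr1 in neurons, was scarce. Its counts were 33, 14, 30 and 18 in OGDR 1 to 4, then 4, 8, 10 and 13 in MSCs 1 to 4, then 14, 17, 26 and 32 in rTMS-MSCs 1 to 4. The OGDR and MSCs ranges overlapped slightly, and the highest MSCs library (0.691 CPM) lay just under the lowest rTMS-MSCs library (0.697 CPM). Egr3 passed the filter on low counts through OGDR and rTMS-MSCs, not through MSCs. It fell by 1.34 with stem cells (SE 0.428, adjusted p = 0.0301) and rose by 1.31 ± 0.430 with stimulation (adjusted p = 0.0407). In rTMS-MSCs against OGDR its log2 fold change was -0.04 ± 0.381 (adjusted p = 0.957), and the 95% interval of -0.83 to 0.76 leaves room for a difference in either direction.

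The calls on Egr3 were the least firm of the family. In MSCs against OGDR the change was -1.15 without OGDR 1 (adjusted p = 0.103), -1.22 without OGDR 3 (adjusted p = 0.0844), -1.09 without MSCs 1 (adjusted p = 0.109) and -1.29 without MSCs 2 (adjusted p = 0.0766). Without OGDR 1, or without MSCs 1, Egr1 was the 1 member still called in that comparison. In rTMS-MSCs against MSCs the change was 1.06 without MSCs 1 (adjusted p = 0.130) and 1.26 without MSCs 2 (adjusted p = 0.0766), and without MSCs 3 it did not pass either (adjusted p = 0.0858). It was 1.41 without rTMS-MSCs 2 (adjusted p = 0.0551), 1.21 without rTMS-MSCs 3 (adjusted p = 0.106) and 1.10 without rTMS-MSCs 4 (adjusted p = 0.0971). Without both MSCs 3 and rTMS-MSCs 3 it was 1.29 (adjusted p = 0.160).

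Egr4, also called NGFI-C, had 0 counts in all 12 libraries. With 3 counts as the limit that a count of 0 allows, this leaves room for 0.147 to 0.164 CPM per library, for counting error only. A count of 0 is not always absence in this table: Mapk3, which encodes the widely expressed kinase ERK1, was also listed at 0 in every library.

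**Figure D4:**
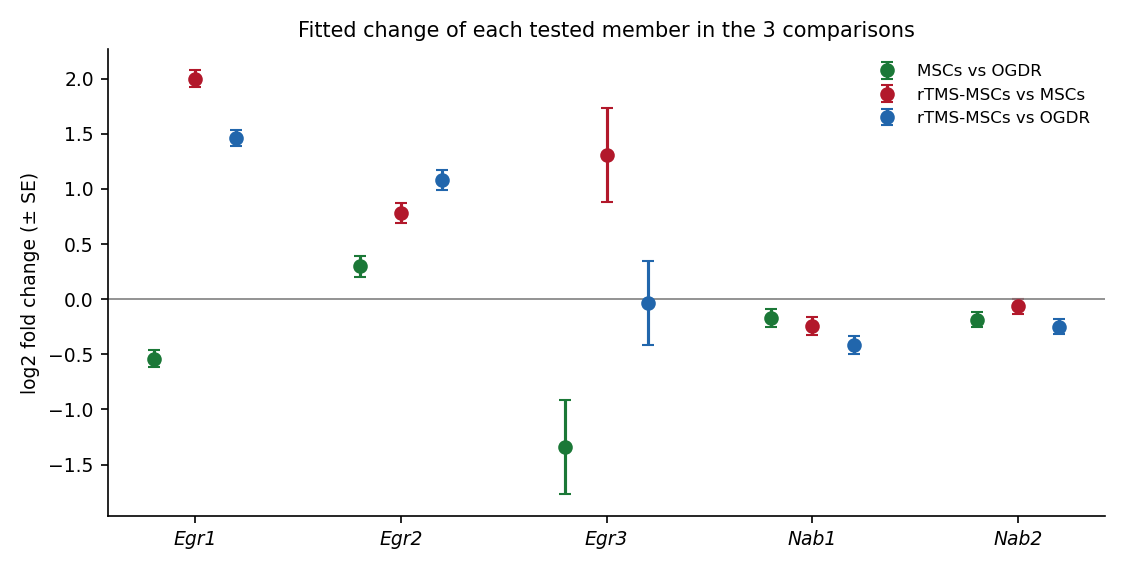
Log2 fold change with its SE for the 5 tested members in MSCs against OGDR (green), rTMS-MSCs against MSCs (red) and rTMS-MSCs against OGDR (blue). Egr1 goes from -0.54 to 2.00 between the first and second of these, and both Nab genes stay within 0.42 of 0.

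Nab1 stood at 60.9, 67.0, 69.2 and 64.9 CPM in OGDR 1 to 4, at 64.1, 57.0, 59.9 and 51.5 CPM in MSCs 1 to 4, and at 56.3, 47.0, 43.0 and 50.1 CPM in rTMS-MSCs 1 to 4. Neighbouring groups overlapped, while OGDR lay wholly above rTMS-MSCs. Nab1 fell by 0.42 in rTMS-MSCs against OGDR (SE 0.0842, adjusted p = 0.000826), to 75.0%. Neither step on its own passed: the log2 fold change was -0.17 ± 0.0837 with stem cells (adjusted p = 0.162) and -0.24 ± 0.0846 with stimulation (adjusted p = 0.0512). The last value lay close to the threshold and passed with DESeq2 (adjusted p = 0.0324). It also passed without MSCs 4 (-0.30, adjusted p = 0.0273) and without rTMS-MSCs 1 (-0.32, adjusted p = 0.0186). In 11 of 17 alternatives it still did not pass. Among these was the fit without both MSCs 3 and rTMS-MSCs 3 (-0.17, adjusted p = 0.272).

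Nab2, the corepressor that Egr proteins themselves induce, had the most counts of the family. It stood at 137.9, 136.8, 119 and 122 CPM in OGDR 1 to 4, at 121, 116, 109.8 and 107 CPM in MSCs 1 to 4, and at 105.5, 115.5, 115.9 and 97.2 CPM in rTMS-MSCs 1 to 4. MSCs and rTMS-MSCs overlapped over most of their range, and OGDR lay above rTMS-MSCs. Nab2 fell by 0.25 in rTMS-MSCs against OGDR (SE 0.0691, adjusted p = 0.00905). With stem cells its log2 fold change was -0.19 ± 0.0690 (adjusted p = 0.0643), which passed without OGDR 3 (-0.22, adjusted p = 0.0433), and with stimulation it was -0.06 ± 0.0693 (adjusted p = 0.547). The 95% interval of the stimulation value ran from -0.21 to 0.08, so a rise of Nab2 above 0.08 lies outside it.

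Ratios of counts within a library do not depend on how libraries are scaled. The count of Egr1 relative to Nab2 was 0.245, 0.266, 0.285 and 0.241 in OGDR 1 to 4, then 0.190, 0.206, 0.218 and 0.198 in MSCs 1 to 4. In rTMS-MSCs 1 to 4 it was 0.857, 0.786, 0.797 and 0.962. The groups did not overlap, and MSCs was the lowest. Its log2 value rose by 2.07 with stimulation on stem cells. The log2 ratio of Egr1 to Nab1 rose by 2.25 and that of Egr1 to Egr2 by 1.22 at the same step, and each had fallen with stem cells alone, by 0.36 and by 0.84. All of these differences, the -0.35 for Egr1 to Nab2 with stem cells included, gave the smallest p that 4 against 4 allows (two-sided exact permutation test, p = 0.0286, adjusted p = 0.0381 over 12 tests). The log2 ratio of Nab2 to Nab1 overlapped between all groups, with means of 0.98 in OGDR, 0.97 in MSCs and 1.15 in rTMS-MSCs (exact permutation tests, adjusted p = 0.343 to 0.914).

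**Figure D5:**
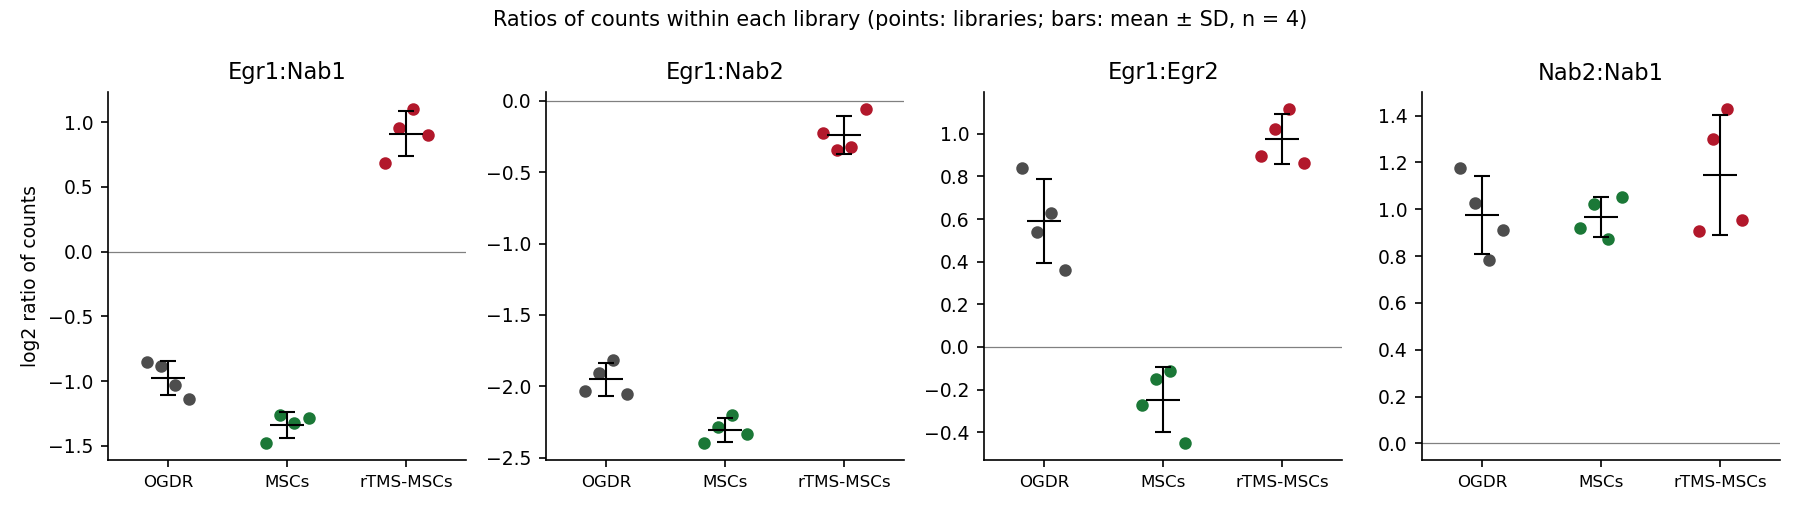
Log2 ratios of raw counts within each library, by group, with the mean and SD of 4 libraries as bars. Egr1 relative to Nab1, Nab2 and Egr2 is lowest in MSCs and highest in rTMS-MSCs, and Nab2 relative to Nab1 overlaps between the groups.

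Of all counts on the 4 Egr genes, Egr1 made up 55.3% to 62.2% in OGDR, 41.6% to 47.5% in MSCs and 63.8% to 67.8% in rTMS-MSCs. Egr2 made up 34.8% to 43.0%, 51.4% to 57.0% and 31.2% to 35.1%. Egr2 thus had more counts than Egr1 in the MSCs libraries, and Egr1 had more in the others. These shares are not per length and do not rank the genes by copies of RNA.

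The genes with the profile most like each member were found by the root mean square difference in log2 CPM over 12 libraries, each gene centred on its own mean. For Egr1 no gene came close: the nearest were Ptprcap at 0.46, Marchf10 at 0.51 and Egr2 at 0.53, set against a spread of 0.85 for Egr1 itself. Ptprcap averaged only 0.465 CPM, and with a prior count of 0.5 instead of 2 it was not among the 3 nearest. Marchf10, a ubiquitin ligase, was also nearest to Egr2, at 0.20 of a spread of 0.47, and was followed by the NF-kB inhibitor Nfkbia at 0.21 and the steroid receptor coactivator Sra1 at 0.22. Nearest to Egr3, at 0.41 to 0.43 of a spread of 0.73, were 2 loci without a gene name and Bfsp2, a lens filament protein. Nab1 had close neighbours, among them the kinase Taok3 at 0.0643 and the ERK phosphatase Dusp4 at 0.0680 of a spread of 0.206. Nab2 was matched by Niban2, Smap2 and Med24 at 0.0590 to 0.0611 of 0.139. These libraries share their groups, so likeness of profile says nothing of a common regulator.

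The signalling genes upstream of Egr were next counted. Of 17 tested genes of the ERK cascade, 1 rose and 1 fell with stimulation on stem cells, with a median log2 fold change of -0.08, against 0.02 over all tested genes. They were Rras at 0.28 and Nras at -0.30, both small GTPases, and Nras was looked up after its value was seen. With stem cells 3 rose and 1 fell, where 11.6% of all tested genes rose and 8.63% fell. The rises were led by the scaffold Ksr1, which rose by 1.66 ± 0.0931 (SE, adjusted p = 3.37e-11), and Map2k1, the kinase that activates ERK, fell by 0.27. Of 14 tested factors of the SRF, TCF, MRTF and CREB groups none rose and 5 fell with stimulation, a step at which 7.14% of all tested genes rose and 10.9% fell. Mrtfb, a cofactor of serum response factor, fell by 0.97 ± 0.208 (adjusted p = 0.00484), Creb1 by 0.59, the acetyltransferase Ep300 by 0.49, Elk4 by 0.36 and Crtc3, named after its value was seen, by 0.41. Srf itself, which binds the CArG box, fell by 0.31 with stem cells (adjusted p = 0.00614) and had a log2 fold change of -0.02 with stimulation (adjusted p = 0.879). The median of this list was -0.13 with stimulation and 0.03 with stem cells.

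In rTMS-MSCs against MSCs no other tested immediate early gene of the list had as high a fold change as Egr1. Of 25 other genes of this kind tested, 5 rose and 3 fell with stimulation on stem cells, with a median of 0.10. At that step 7.14% of all tested genes rose and 10.9% fell. Klf2 rose by 0.94 ± 0.188 (adjusted p = 0.00327) and the clock gene Per1 by 0.23, and Atf3, Junb and Myc, named after their values were seen, by 0.50, 0.37 and 0.35. Nr4a2, Homer1 and Fosl2, also named afterwards, fell by 1.14, 0.56 and 0.30. Per1 had already risen by 2.63 with stem cells (SE 0.0696, adjusted p = 2.28e-16), from 19.4 to 120 CPM, and in rTMS-MSCs against OGDR its log2 fold change of 2.86 was above the 1.46 of Egr1. Fos went from 9.18 CPM in OGDR to 17.1 in MSCs and 19.0 in rTMS-MSCs, so it rose with stem cells (0.90 ± 0.115, adjusted p = 6.00e-06), where Egr1 fell, and at the stimulation step it did not pass (adjusted p = 0.357). Nr4a1 did likewise, at 0.57 with stem cells and -0.04 with stimulation. Of 16 tested ERK feedback genes 1 rose and 5 fell with stimulation (median -0.08), where 10.9% of all tested genes fell. With stem cells 1 rose and 9 fell (median -0.27), where 8.63% of all tested genes fell. Spry4, an inhibitor of receptor kinase signalling, fell by 0.86 and then by 0.29, and Spry2 fell by 0.56 with stem cells and had a value of 0.12 with stimulation (adjusted p = 0.124).

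Genes that Egr proteins are known to control were counted in the same way. Of 23 tested Egr target genes 1 rose and 1 fell with stimulation on stem cells, with a median of 0.06, where 18.1% of all tested genes changed. These were the stress gene Gadd45b at 0.37 and the cyclin Ccnd1 at -0.13, both named after their values were seen. With stem cells 5 rose and 6 fell (median 0.14, range -0.86 to 2.13), where 20.2% of all tested genes changed. The tissue factor gene F3 fell by 0.81 and Gadd45a by 0.77 with stem cells, and neither passed with stimulation. The neurotrophin receptor Ngfr rose by 0.46 with stem cells and stood at 217 CPM in both groups that had them.

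The myelin programme is the setting in which Egr2 is best known. Of its 19 tested genes 7 rose and 2 fell with stem cells (median 0.22), where 20.2% of all tested genes changed, and 1 rose and 4 fell with stimulation (median 0.00), where 18.1% did. Of the 8 Schwann and glial markers, some of which are in this list too, 5 rose with stem cells and none fell, and their part in the list's values was not tested. Pmp22, a myelin protein, rose by 0.52 with stem cells and had a value of 0.08 with stimulation (adjusted p = 0.283). The neuregulin receptor Erbb3 fell by 0.55 with stimulation. Among 19 tested partners of Egr and Nab proteins, 2 rose with stem cells, the remodellers Chd4 at 0.24 and Chd3 at 0.17. With stimulation 2 rose and 3 fell, among them the coactivator Cited1 at 0.39 and the cell cycle cofactor Hcfc1 at -0.36. The lists were drawn from general knowledge of the pathway and were described by counts and medians only.

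The share of promoter windows with an Egr site was set against the calls. Of 9773 tested genes with a window, 9.89% held one. In rTMS-MSCs against MSCs the share was 6.04% of 745 genes that rose and 14.0% of 1161 that fell. It was 11.8% of genes that rose and 10.7% of those that fell in MSCs against OGDR, and 10.2% and 14.0% in rTMS-MSCs against OGDR. Base composition moved with it, since the median window was 59.0% G or C among genes that rose with stimulation on stem cells and 64.3% among those that fell, and its part was not tested. CArG boxes were in 1.34% of the windows of genes that rose and 1.55% of those that fell in rTMS-MSCs against MSCs, and in 1.33% of all. Other motifs differed there too. The Ets core (CCGGAA), also counted, was in 36.6% of genes that rose, 21.4% of those that fell and 28% of all. For the TGACG core these shares were 36.1%, 28.3% and 31.7%, and for the full site TGACGTCA 3.36%, 1.89% and 3.2%. How many genes were called in that comparison depended on single libraries: against 2475 over all libraries, 1313 were called without MSCs 1, 1006 without MSCs 3, 1480 without rTMS-MSCs 3 and 677 without MSCs 3 and rTMS-MSCs 3. Egr1 and Egr2 passed in all of these.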

How the data were processed

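The submitters' processing notes name HISAT2 2.1.0, HTSeq 0.11.2, DESeq2 1.40.1 and the build mRatBN7.2. They give no annotation release or strand setting, so it is not known whether reads of a gene and of an antisense partner were told apart. In the RefSeq gene spans no other gene overlapped a member. The deposited table holds a raw count per gene and library. Its 5 HTSeq summary lines (51.7% to 52.7% of reads on no feature) stayed out of library sizes.

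Using R 4.3.3 and edgeR 4.0.16, filterByExpr (minimum count 10) kept 13692 genes, TMM gave the scaling, and 1 quasi-likelihood model covered all 12 libraries. Benjamini-Hochberg adjustment ran over every tested gene, and calls needed an adjusted p under 0.05. Depth was 18246250 to 20471838 counts per library, and intervals from counts cover counting error only. Levels are CPM, and a prior count of 2 was used for log2 CPM. The fit was tested on simulated counts. The members and the lists were chosen with earlier results of these data known. Named genes were all members, up to 4 genes with the smallest p per list, regulators of the members, and the 3 genes of most similar profile per changed member. A few genes that this rule names are not reported here. Alternatives used limma 3.58.1 and DESeq2 1.42.0, other scalings, no filter, 8 libraries, a replicate block, robust shrinkage and leaving out libraries.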

Additional observations from a re-analysis of the deposited data

How the results depend on the processing

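Of 254 alternative values of the members' fold changes, 227 kept their side of the threshold, 17 lost the call and 10 gained it. No called change reversed its direction. Egr3 in rTMS-MSCs against OGDR, which passed in none of 17 alternatives, changed sign among them (-0.25 to 0.16). The call on Egr1 held in all 17 alternatives of each comparison, and with stimulation on stem cells its log2 fold change ran from 1.96 to 2.02. In MSCs against OGDR, Nab2 passed with upper quartile scaling (-0.21), limma voom (-0.18) and the 8 compared libraries (-0.19). In rTMS-MSCs against MSCs, Nab1 passed with DESeq2 (-0.24), limma voom (-0.24), no filter (-0.25) and robust shrinkage (-0.24). There Egr3 did not pass with the 8 compared libraries (1.30), with the replicate number as a block (1.30) or without MSCs 3 and rTMS-MSCs 3 (1.29), and DESeq2 gave it no adjusted p. Without MSCs 3 and rTMS-MSCs 3, 677 genes of the whole table were called. The causes were not tested.

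With single libraries left out, the members called in MSCs against OGDR ran from 1 to 3, and the genes called over the whole table in rTMS-MSCs against MSCs from 1006 to 3196. In MSCs against OGDR the values ran from 0.23 to 0.36 for Egr2, from -1.60 to -1.09 for Egr3 and from -0.22 to -0.15 for Nab2. In rTMS-MSCs against MSCs they ran from 1.06 to 1.57 for Egr3 and from -0.32 to -0.18 for Nab1. Libraries of the same number did not deviate together (correlations of -0.205 to 0.128), so the numbers were not taken as pairs. With the block 2577, 1995 and 4185 genes were called in the 3 comparisons, against 2763, 2475 and 4439 without it. Depth limited Egr3, at 4 to 33 counts per library, and Egr4. Of 120 alternative values of the ratios 104 kept the call or its absence and 16 lost it, 9 of these under the block, where sign flips over 4 pairs could not pass (adjusted p = 0.167), and the other 7 with single libraries left out, for Egr1 to Egr2 in rTMS-MSCs against OGDR and Egr1 to Nab1 in MSCs against OGDR.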
